A study of Arabidopsis thaliana with 47 samples.

Results

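RNA polymerase II (Pol II) was found in hex, and not in wild type, at 542 regions of the nuclear genome of Arabidopsis thaliana. These regions were selected by their Pol II values from 2 lists of ChIP-seq peaks, 1 of wild type (WT) and 1 of hex. A region was a hex peak on chromosomes 1 to 5 with a −log10 q value above 2 and a fold enrichment over background above 2, overlapping peaks being merged, and it overlapped no wild-type Pol II peak of any strength. They were 542 of the 10842 hex regions past this threshold. The other 10300 overlapped a wild-type peak and are called shared regions here. In the reverse direction, 799 of the 11745 wild-type regions past the same threshold overlapped no hex peak. Each genotype had 1 Pol II library, so the absence of a wild-type peak has no replicate check, and no test of the Pol II values themselves is given.

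MORC proteins (Microrchidia) are ATPases of the GHKL family that help to keep transposons and some genes silent. In plants they work beside RNA-directed DNA methylation, a pathway in which Pol IV makes precursors of small RNAs and Pol V makes scaffold transcripts that guide DNA methylation to matching sequence. Pol II is the polymerase of messenger RNA, so a Pol II peak that appears at silent chromatin marks a place where transcription may run in the mutant.

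The study compared Columbia-0 plants grown at 16 h light and 8 h dark. The hex mutant carries morc1-2, morc2-1, morc4-1, morc5-1, morc6-3 and morc7-1, all T-DNA insertion alleles, and Pol II was precipitated with the antibody Ab817 from floral tissue of plants 5 to 6 weeks old. MORC7 was mapped by FLAG ChIP-seq in 3 libraries of floral tissue, from morc7-1 plants that carried MORC7 with a 3xFLAG tag under its own promoter, beside 2 FLAG libraries of wild type without a tag. A MORC7 region needed a peak past the same threshold in at least 2 of the 3 libraries, which gave 6424 regions. These describe plants with a working MORC7, not hex. Tagged MORC7 was also mapped in the mutants nrpd1, nrpe1, nrpd1 nrpe1, dms3 and met1, and MORC4 with a 3xFLAG tag in morc4-1 plants. By the labels, the plants of every group used, RNA-seq included, were 5 to 6 weeks old. For RNA-seq the paper's methods instead speak of seedlings of 3 weeks. Whether the Pol II and RNA plants were of like age is therefore unknown. RNA-seq held 9 libraries, 3 each of wild type and of those labelled nrpe1 (the allele nrpe1-11, in the largest subunit of Pol V) and hex, and gave transcript abundance in TPM, a unit scaled by gene length and by library, for each gene. The lists give no read totals, so the sequencing depth of every library is unknown.

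The labels of the ChIP-seq and RNA-seq libraries did not fare alike against the mutated genes. The wild-type Pol II list had a peak at 5 of the 6 MORC genes. Their highest fold enrichments were 1.73 at MORC7, 2.15 at MORC6, 2.38 at MORC5 and 2.48 at both MORC1 and MORC2. As these last values are the same, 1 peak may be counted at both genes. The hex list had a peak at 1 of the 6, MORC5, with a fold enrichment of 1.82. MORC1 RNA, in contrast, was 7.99, 7.42 and 8.08 TPM in wild type, 2.06, 2.04 and 1.77 under the label nrpe1, and 9.17, 8.31 and 7.7 under the label hex. MORC1, MORC2, MORC6 and MORC7 were called lower and MORC4 higher in the libraries labelled nrpe1. NRPE1, the Pol V subunit, was at 0.62, 0.51 and 0.5 TPM in those labelled hex against 1.74, 1.27 and 1.73 in wild type. On the scale log2(TPM + 1) its difference was -0.74 (SE 0.14, limma adjusted p = 0.126). The added 1 TPM shrinks differences between values this low. The RNA libraries are therefore called by their labels, none was moved, and both contrasts are given. Whether the mutant labels were exchanged was not tested, so no difference under a label is assigned here to that genotype.

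In the file of replicate 2 labelled nrpe1, the same table stands again under a header that names hex-2, so its group has a further contradiction. The tissue of the RNA libraries is also in doubt. GEO's text gives floral tissue for them and, in the protocol, leaf tissue of seedlings as well. All 7 floral organ identity genes on the list had a shared Pol II region, yet their RNA summed to 1.8 to 3.83 TPM in any library, AP1, AP3, PI and SEP2 never exceeded 0.39 TPM, and 17 light-harvesting genes summed to 194025 to 212326 TPM. Of 15 anther and tapetum genes, 12 stayed under 1 TPM in every library. Pollen genes summed to 1.96 to 3.54 TPM in 8 libraries and to 49.32 TPM in replicate 3 of those labelled nrpe1. Whether tissue or plant age has a part in any difference between the Pol II and RNA results was not tested. In such bulk samples, fewer cells of a type and less RNA per cell cannot be told apart.

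A few sequences carry the results that follow. They come from the RefSeq sequence of assembly TAIR10.1, whose chromosomes hold every deposited peak within their ends. The first pair are the promoters, 250 bases before to 50 bases after the annotated start, of the genes at the regions of rank 1 and 3 by Pol II fold enrichment. Both regions reach over the start, from 164 bases before it at AT3G29639 (chr3:11479984-11480283, minus strand) and from 109 bases before it at AT5G35480 (chr5:13689547-13689846, minus strand), both genes for proteins of unknown function. Capitals mark TATAAA on the strand of the gene, which begins 41 bases before the start at AT3G29639 and 26 bases before it at AT5G35480.
AT3G29639 promoter: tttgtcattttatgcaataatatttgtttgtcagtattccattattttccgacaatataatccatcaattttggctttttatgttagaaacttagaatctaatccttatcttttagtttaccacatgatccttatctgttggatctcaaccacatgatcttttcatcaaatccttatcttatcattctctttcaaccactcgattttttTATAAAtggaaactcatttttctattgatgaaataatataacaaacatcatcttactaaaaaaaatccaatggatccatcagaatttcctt
AT5G35480 promoter: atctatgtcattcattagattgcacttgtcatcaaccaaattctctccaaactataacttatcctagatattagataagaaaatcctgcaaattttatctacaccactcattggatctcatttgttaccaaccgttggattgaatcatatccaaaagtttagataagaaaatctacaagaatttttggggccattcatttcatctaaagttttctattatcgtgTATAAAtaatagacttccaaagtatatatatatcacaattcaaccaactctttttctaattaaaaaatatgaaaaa
The letters TATAAA occurred in 37.2% of the promoters of all 27444 protein-coding genes, in 34.7% of those of the 510 protein-coding genes at hex-only regions, and in 29.4% of the 68 at hex-only regions over MORC7. Within 100 bases of the summit, TATAAA or its reverse complement TTTATA was found in 22.3% of the hex-only and 23.59% of the shared regions.

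The next sequences show that 3 of the strong hex-only regions are related to each other. The regions at chr3:18068993-18070274 (fold enrichment 3.48), chr5:250069-251059 (3.40) and chr1:26196253-26197246 (2.58) had 72 words of 50 bases in common, and 402 words were found in at least 2 of them. The longest stretch of chromosome 1 that is covered by words shared with either other region is printed on the plus strand (chr1:26196725-26196930). It does not recur whole, and the 81 bases common to all 3 regions are in capitals. Chromosome 5 holds its first 150 bases at chr5:250499-250648, and chromosome 3 the 81 bases at chr3:18069778-18069858.
Region on chromosome 1: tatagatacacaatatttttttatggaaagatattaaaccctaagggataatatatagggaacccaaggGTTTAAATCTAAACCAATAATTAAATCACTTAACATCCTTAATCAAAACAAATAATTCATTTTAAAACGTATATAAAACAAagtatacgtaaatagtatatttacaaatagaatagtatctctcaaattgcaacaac
All 3 regions lay over a MORC7 peak in each of the 3 libraries. By the selection no wild-type Pol II peak overlapped them. The nearest one was 4269 bp away on chromosome 3, 589 bp on chromosome 5 and 341 bp on chromosome 1. The nuclear genome holds words of this family at 5 places in all. The other 2, chr2:905063-905117 with 6 words and chr3:16682206-16682689 with 23, also lay over MORC7 regions but had no Pol II peak in either list. The place on chromosome 2 is next to a weaker hex-only region, chr2:904590-905042, of fold enrichment 2.16 and over MORC7 in all 3 libraries. On chromosomes 1 and 5 the region touched no gene and lay 251 bp from AT1G69650 and 626 bp from AT5G01670. On chromosome 3 it covered the glutamine tRNA gene AT3G48745, listed at 0 TPM in all 9 libraries. The paper's methods name an mRNA kit for RNA-seq, so this value does not tell whether the tRNA gene was transcribed.

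The last sequence is from the strongest hex-only region that overlapped neither a gene nor a MORC7 region, chr4:2828474-2829495, with a fold enrichment of 4.50. The 200 bases at its summit (chr4:2828893-2829092, plus strand) were 50.0% G and C, while the whole region was 37.0%, near the median of 37.4% over the hex-only regions. They hold neither TATAAA nor TTTATA.
Region on chromosome 4: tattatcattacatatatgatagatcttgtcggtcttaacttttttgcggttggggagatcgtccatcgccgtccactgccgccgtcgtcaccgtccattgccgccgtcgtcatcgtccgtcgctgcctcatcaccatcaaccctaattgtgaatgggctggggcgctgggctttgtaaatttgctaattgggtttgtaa
The nearest gene, AT4G05553, was 1814 bp away, and the nearest MORC7 region 11641 bp. A MORC7 peak of fold enrichment 2.75 did lie there in 1 of the 3 libraries, which is fewer than a MORC7 region needed.

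Most hex-only regions were weak and narrow. Their fold enrichment, which the selection used, had a median of 2.11, and 378 of the 542 were at or under 2.2. Only 31 exceeded 2.5 and 9 exceeded 3, up to 4.84 at AT3G29639, whereas shared regions had a median of 2.43 and wild-type-only regions reached 3.26. The members just inside the threshold had fold enrichments of 2.0004, 2.00054 and 2.00066, and the hex peaks just outside it 1.99983, 1.99841 and 1.99817. The median width was 248.5 bp, against 515 bp for shared and 241 bp for wild-type-only regions. A wild-type Pol II peak lay within 500 bp of 114 members, and the median distance to one was 2001.5 bp. From chromosome 1 to 5 there were 149, 77, 98, 96 and 122 members, and chromosome 4 held 17.7% of the members against 13.96% of the shared regions.

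**Figure D1:**
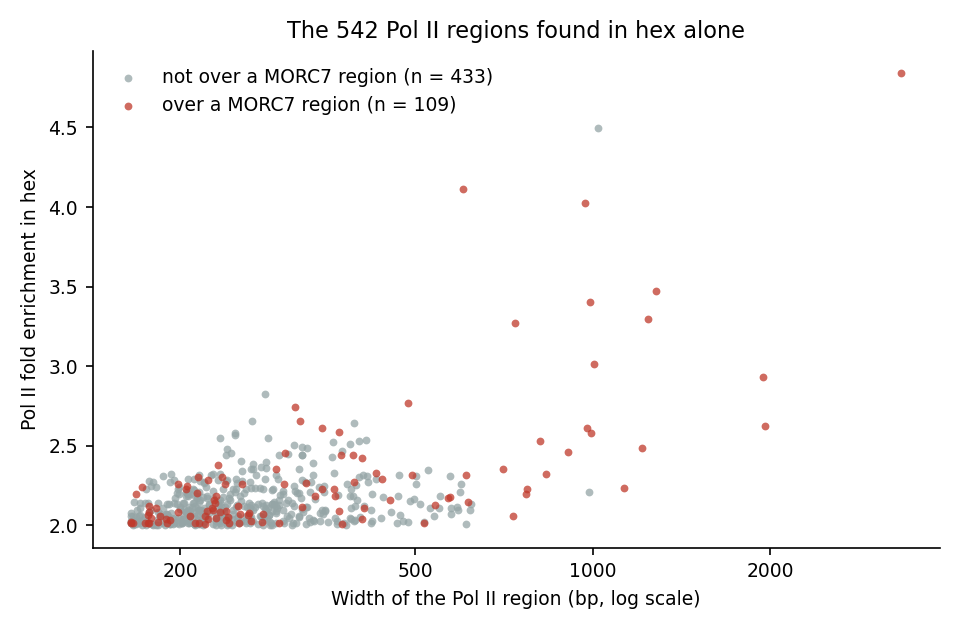
Pol II fold enrichment in hex (y axis) against width in bp (x axis, log scale) of the 542 regions found in hex alone, 1 point per region, in red where the region overlaps a wild-type MORC7 region (n = 109) and in grey where it does not (n = 433). Most points crowd near a fold enrichment of 2 and a width of 200 to 300 bp, and 8 of the 9 points above a fold enrichment of 3 are red.

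Compared with shared regions, hex-only regions lay more often in a gene body with no 5′ end covered. They covered 5′ ends less often and touched no gene more often. The first base of a gene was covered by 114 members (21.0%), against 45.1% of the shared and 25.4% of the wild-type-only regions. A further 372 members (68.6%, against 52.4% of shared and 54.9% of wild-type-only regions) lay in a gene body and covered no 5′ end. Outside genes, 32 members lay within 1 kb upstream of a gene, 13 within 1 kb downstream and 11 elsewhere. The 3′ end of a gene was covered by 31.2% of members, 60.3% of shared and 19.9% of wild-type-only regions. Within protein-coding genes of at least 1 kb, 52.8% of 381 member summits fell in the first 20% of the gene and 27.8% in the last 20%, against 49.3% and 41.3% of 7519 shared summits. A total of 56 members (10.3%) touched no annotated gene, against 2.48% of shared regions. Among wild-type-only regions this share was higher still, at 19.6%. Shared regions were also the wider, and the part of width in these shares was not tested.

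**Figure D2:**
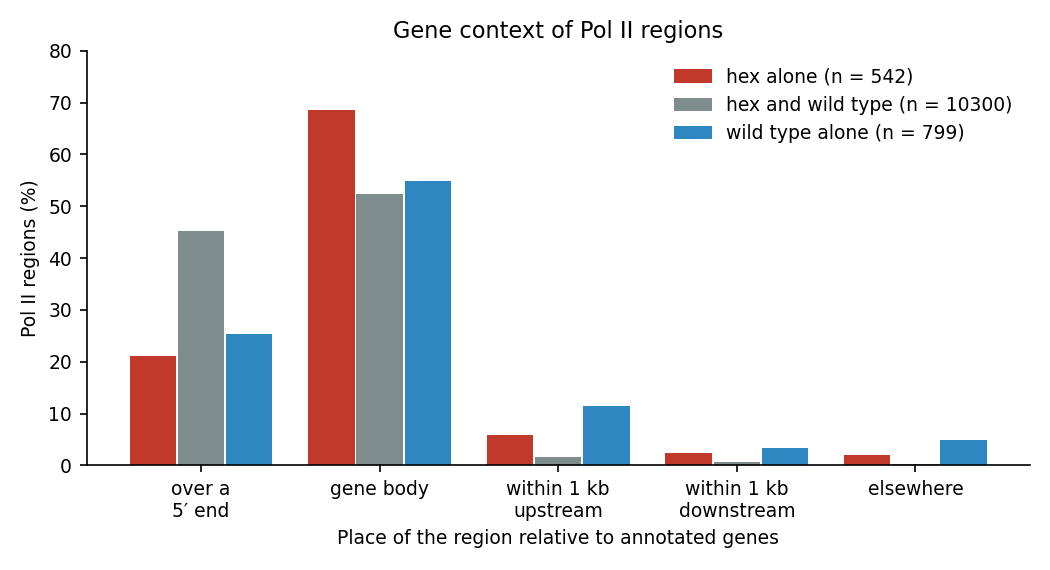
Share in percent (y axis) of Pol II regions found in hex alone (n = 542), in hex and wild type (n = 10300) and in wild type alone (n = 799) by place relative to RefSeq genes (x axis), each region counted once in the first class that applies from left to right. The hex-only bar is the highest of the 3 in gene bodies, at 68.6%, and the lowest over 5′ ends, at 21.0%.

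As a whole, the hex-only regions overlapped MORC7 only a little more often than other Pol II regions did. A wild-type MORC7 region lay under 109 members (20.1%, exact 95% interval over regions 16.8% to 23.7%), 15.1% of shared regions and 19.02% of wild-type-only regions. Within 1 kb of a MORC7 region were 155 members (28.6%), 21.2% of shared and 26.3% of wild-type-only regions. The median distance to a MORC7 region was 4250 bp for members, 5595 bp for shared and 5094 bp for wild-type-only regions, and 149 members (27.5%) were more than 10 kb away, as were 33.8% and 32.8% of the others. No member had a peak in either FLAG library without a tag, but such peaks were rare at all Pol II regions. They lay at 0.233% and 0.0777% of shared and at 0% and 0.125% of wild-type-only regions in the 2 libraries. The order of members and shared regions depended on how a MORC7 region was counted: with a peak in 1 library as enough, the shares were 27.9% for members and 29.1% for shared regions. With MORC7 peaks past a −log10 q value and a fold enrichment of 3, they were 12.4% and 4.83%.

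The strong members were another matter. Up to a fold enrichment of 2.1, 42 of 256 members (16.4%) lay over a MORC7 region, and from 2.1 to 2.2 there were 18 of 122 (14.8%). The share was 31 of 133 (23.3%) from 2.2 to 2.5, 10 of 22 (45.5%, interval 24.4% to 67.8%) from 2.5 to 3, and 8 of 9 (88.9%, interval 51.8% to 99.7%) above 3. Among shared regions it lay between 14.3% and 15.8% in the same 5 classes of fold enrichment. Among wild-type-only regions above 2.5 it was 3 of 23 (13.04%). Together, 18 of the 31 members above 2.5 (58.1%, interval 39.1% to 75.5%) and 689 of 4506 shared regions above 2.5 (15.3%) lay over MORC7. Width followed the same order: of the 48 members at least 500 bp wide, 27 (56.2%) lay over MORC7, against 17.57% of 5390 shared regions of that width. The intervals cover the counting of regions alone, not the spread between libraries, and regions that lie close together are not independent.

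**Figure D3:**
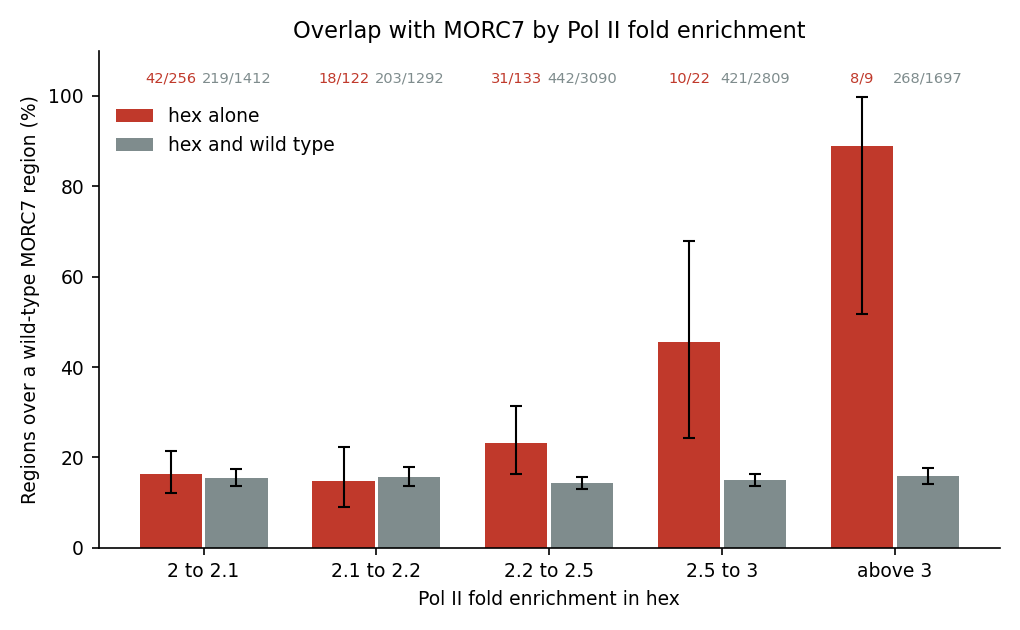
Share in percent (y axis) of Pol II regions that overlap a wild-type MORC7 region, by Pol II fold enrichment in hex (x axis), for regions found in hex alone (red) and in hex and wild type (grey). Bars are shares, error bars exact 95% binomial intervals over regions, and the numbers along the top give the regions over MORC7 and all regions of that class. The red bars go from 16.4% in the lowest class to 88.9% in the highest, and the grey bars stay between 14.3% and 15.8%.

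MORC7 at the strong members was seen in every library with tagged MORC7. Of the 31 members above 2.5, each wild-type MORC7 library alone had a peak at 16 to 18, and without any 1 library the share over a MORC7 region was 54.8% to 58.1%, against 8.66% to 12.0% of the 4506 shared regions. The libraries of tagged MORC7 in nrpd1 (Pol IV), nrpe1 (Pol V), nrpd1 nrpe1 and dms3, a mutant of a factor that Pol V needs, had a peak at 16 to 18 of the 31. The met1 library, from plants that lack the maintenance methyltransferase of CG sites, had one at 18. Any 1 of all these libraries had a peak at 3.17% to 23.57% of the strong shared regions. MORC4-FLAG had one at 6 and 17 of the 31 in its 2 libraries. The MORC7 regions under strong members were themselves among the stronger ones: their median fold enrichment was 7.47 over 15 regions, against 3.50 over all 6424 MORC7 regions and 3.13 over those at shared Pol II regions. With the members of the chromosome 3 neighbourhood described next left out, 51.9% of the remaining 27 strong members lay over MORC7.

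Members over MORC7 sat in poorer gene surroundings than the rest. Their windows of 200 kb held a median of 46 protein-coding genes, against 54 for members not over MORC7 and 56 for shared regions. For shared regions over MORC7 the median was 55, and the 18 strong members over MORC7 had a median of 28. Among the 109 members over MORC7, 29 (26.6%) touched no gene, against 27 of 433 (6.24%) of the rest. The members over MORC7 were also poorer in G and C than the rest, with medians of 35.1% and 37.8%. Of the 109, 28 (25.7%) held at least 1 word of 50 bases that occurs again in the nuclear genome. This share was 4.39% for the rest and 6.27% for shared regions. Shared regions over MORC7 had a share of 10.6% and a median of 36.6% G and C. The authors kept uniquely aligned reads of 50 bp, so a read that lies within such a word has no unique place. In only 2 of the 109 were at least 50% of the words repeated. Transposon annotation was not used here.

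The largest group of neighbouring members lay in a stretch of 40.4 kb on chromosome 3 (chr3:11470163-11510547). It held 7 members and no wild-type Pol II peak, and the nearest such peaks were 86.0 kb and 81.6 kb away. All 7 lay over MORC7, whose 5 regions there cover 23.5 kb (58.1%) of the stretch. From left to right their fold enrichments were 3.27, 2.13, 2.23, 4.84, 2.62, 2.44 and 3.30. The stretch is annotated with 20 genes, of which 5 code for proteins and the rest are pseudogenes and noncoding RNAs. Of the 9 that have TPM values, AT3G29639 and the noncoding AT3G29644, both at members, reached 1 TPM in at least 1 library, and the other 7 stayed at or below 0.43 TPM. A like case of 3 members within 14.7 kb, all over MORC7 and with no shared Pol II region between them, was found at AT5G35480 (chr5:13688735-13703448).

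**Figure D4:**
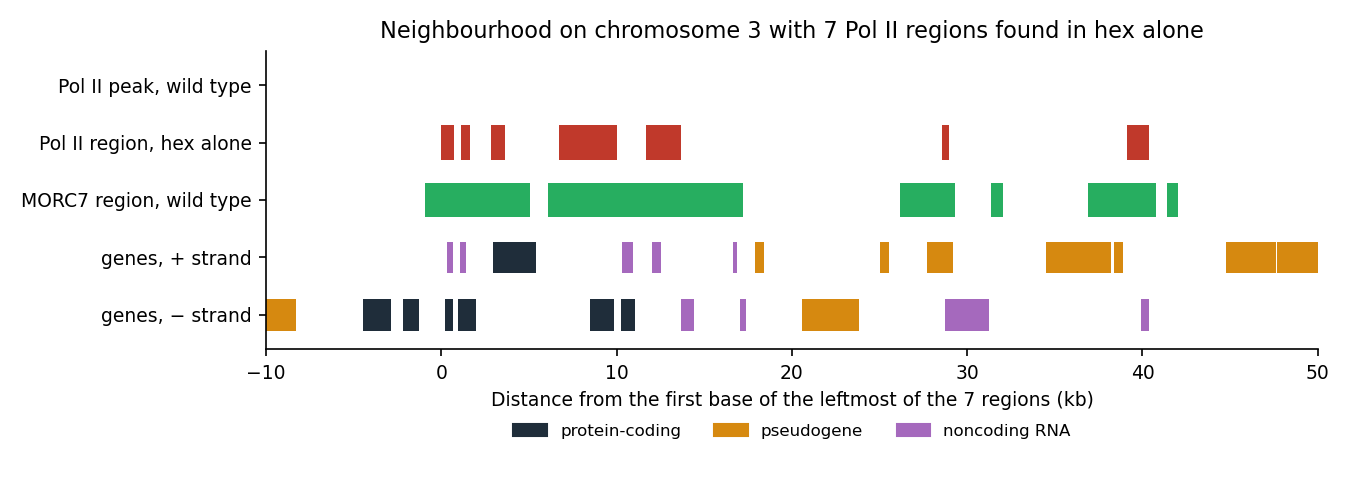
Map to scale of the stretch on chromosome 3 with 7 hex-only Pol II regions and 10 kb to each side (x axis, distance in kb from the first base of the leftmost region), with rows for wild-type Pol II peaks, hex-only Pol II regions (red), wild-type MORC7 regions (green) and genes by strand and type. The row of wild-type Pol II peaks is empty, and every red block lies within a green one or overlaps it.

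Member regions overlapped 550 annotated genes. Of these, 307 also had a wild-type Pol II peak elsewhere in the gene, so that at these genes only the place of a peak was new, and 243 had none. TPM values were found for 518 of the 550, and 445 passed the filter on low values (at least 1 TPM in at least 3 libraries) and were tested. RNA was compared on log2(TPM + 1) by limma, with all 9 libraries in 1 model and p-values adjusted over 17459 genes. A gene was called with an adjusted p under 0.05 and a difference of at least 2-fold. Nothing in the labels says that the 3 libraries of a group came from separate plants, so the p-values measure the spread between these libraries, which may be technical. Both contrasts share the wild-type libraries.

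Few genes were called in RNA, both at hex-only Pol II regions and over all genes tested. Under the label hex, 3 of the 445 (0.674%) were called higher, against 0.235% of all genes tested. In all 14 alternative fits of this contrast the share of member genes called higher was above that of all genes. Called lower under this label was 1 of the 445 (0.225%), against 0.0859%. Under the label nrpe1, 8 were called higher, against 2.31% of all genes, and 9 lower, against 1.63%. The 8 are 1.80% of the 445, a share below that of all genes, but in 9 of 14 alternative fits the share of member genes was above that of all genes, for example 1.12% against 0.258% without replicate 2 of the label nrpe1. This contrast rested on single libraries: without replicate 1, 2 or 3 of the label nrpe1, the member genes called higher were 19, 5 and 5 and all genes called higher were 845, 45 and 59. Without any 1 wild-type library the member genes called higher were 5, and all genes called higher were 43 to 75. Without replicate 1 or 2 of the label hex, 7 member genes and 79 or 74 of all genes were called higher. Of the 60 tested genes over MORC7, 3 (5.00%) were called higher under the label hex and 7 (11.7%) under the label nrpe1, and 0 and 1 were called lower. Of the 385 others, 0 and 1 were called higher, and 1 and 8 lower. The difference between these shares was not tested. Over these 60 genes the median log2 difference was 0.07 for the label hex and 0.23 for nrpe1, against 0.02 and 0.08 over all genes. Read from the other side, a hex-only region was found at 3 of the 41 genes called higher under the label hex (7.32%), 8 of the 402 with a known position under the label nrpe1 (1.99%), and 2.56% and 2.58% of the genes not called in each contrast.

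AT3G29639, under the strongest hex-only region, showed the largest RNA difference of any member gene. It was at 1.04, 1.29 and 1.27 TPM in wild type, 195.04, 233.24 and 215.57 TPM under the label nrpe1, and 22.48, 14.17 and 20.57 TPM under the label hex. The 3 groups did not overlap, with the highest values under the label nrpe1. On the log2 scale it rose by 6.61 (SE 0.16, limma adjusted p = 1.27e-07) in the first and by 3.17 (SE 0.16, limma adjusted p = 1.68e-05) in the second. Its Pol II region was 3336 bp wide, began 164 bases before the start of the gene and ran past its end, to 3171 bases after the start.

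AT5G35480, under a pair of hex-only regions of fold enrichment 4.11 and 2.74, was already transcribed in wild type. It was at 60.55, 61.11 and 63.96 TPM there, 696.65, 582.84 and 677.17 TPM under the label nrpe1, and 35.71, 35.95 and 40.42 TPM under the label hex. It thus rose under 1 label, by 3.37 on the log2 scale (SE 0.09, limma adjusted p = 2.88e-07), and lay below wild type under the other, at -0.71 (SE 0.09, limma adjusted p = 0.0103), a difference under 2-fold. The deposited list has no wild-type Pol II peak in this gene in spite of its wild-type RNA.

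Another pair of member genes was close to silent in wild type and rose by similar amounts under both labels. AT2G10975, for a protein of unknown function, was listed at 0 TPM in all 3 wild-type libraries, at 5.99, 6.78 and 5.29 TPM under the label nrpe1 and at 5.03, 4.94 and 6.29 TPM under the label hex, with limma adjusted p-values of 5.19e-06 and 1.4e-05. Its hex-only region, of fold enrichment 2.46, covered bases 17 to 923 of a gene of 951 bp. AT3G29644, a long noncoding RNA of the chromosome 3 stretch, was at 0.24, 0.44 and 0.42 TPM in wild type, 7.34, 9.19 and 7.81 TPM under the label nrpe1 and 9.51, 8.38 and 8.21 TPM under the label hex. It rose by 2.74 (SE 0.11, limma adjusted p = 3.96e-06) and 2.83 (SE 0.11, limma adjusted p = 6.64e-06) on the log2 scale. Its member region, of fold enrichment 2.44, lay at the end of the gene, where the pseudogene AT3G29642 overlaps it on the opposite strand. The RNA kit kept the strand, but whether the counting used it is not given in the sources used here, so reads of the overlapping part may belong to either. AT3G29642 itself was listed at 0 to 0.26 TPM.

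The other 4 genes called higher in the libraries labelled nrpe1 were less uniform. MRD1 (AT1G53480), named for its lower RNA in a methionine mutant, was at 0.14, 0.1 and 0.65 TPM in wild type and at 20.43, 19.49 and 17.16 TPM under the label nrpe1, a rise of 3.97 on the log2 scale (SE 0.87, limma adjusted p = 0.0376). Under the label hex its libraries ranged from 0.31 through 8.52 to 25.56 TPM, so that 1 of them lay within the wild-type range, and the gene was not called (limma adjusted p = 0.834). AT5G35926, for a protein with an FBD-like domain, had 0.49 to 0.63 TPM in wild type, 2.33 to 3.8 under the label nrpe1 and 1.57 to 3.73 under the label hex. It was called in the first contrast alone (limma adjusted p = 0.0277 and 0.189). AT5G11430, for a protein with a SPOC domain, was at 5.01 to 6.02, 12.51 to 13.14 and 4.91 to 6.25 TPM in the same order (limma adjusted p = 0.0012 and 0.942). It falls outside the rule for named genes and is given because it completes the 8. ORG1 (AT5G53450), the only one of the 8 whose member is not over MORC7, was at 26.38, 59.94 and 120.34 TPM under the label nrpe1 against 19.94 to 22.21 in wild type (limma adjusted p = 0.046).

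**Figure D5:**
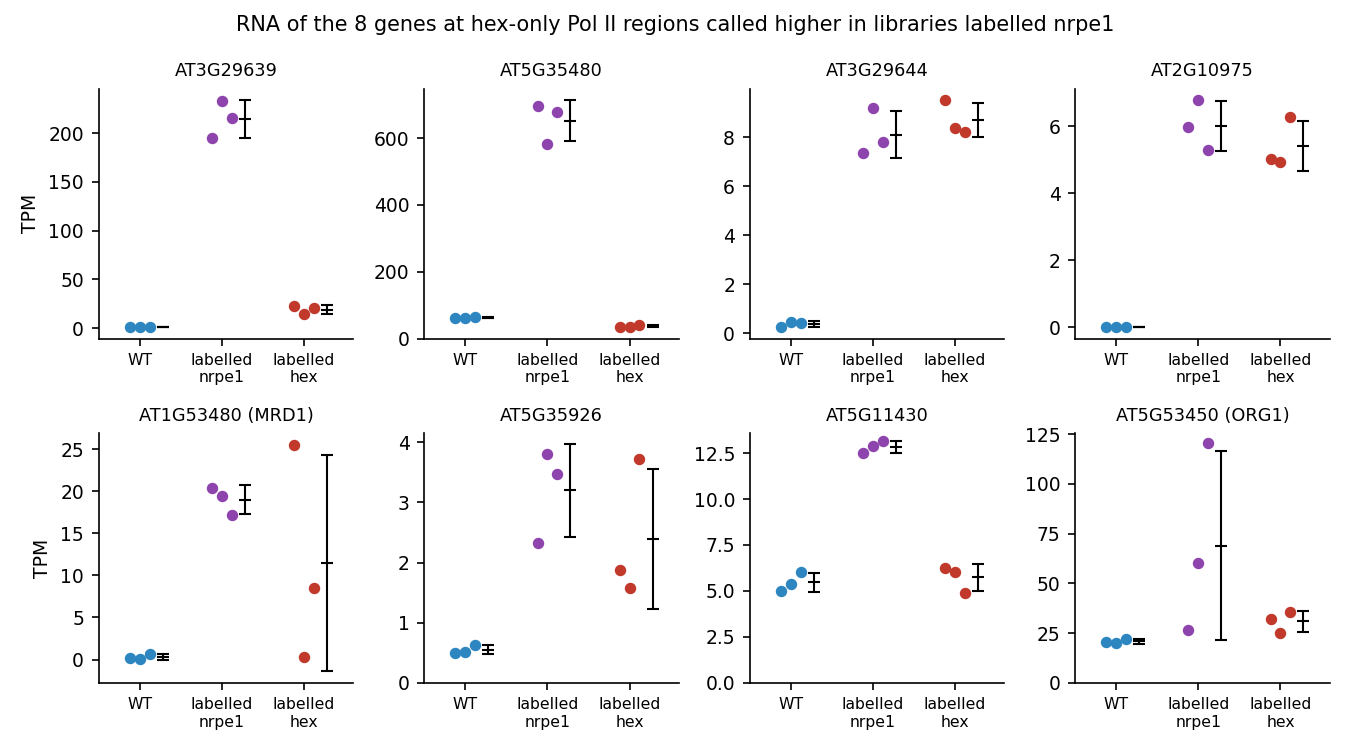
TPM (y axis, linear, a scale of its own for each gene) of the 8 genes at hex-only Pol II regions that were called higher in the libraries labelled nrpe1, by group (x axis). Points are libraries, 3 per group, and the dash with its bar is the mean with the SD. AT3G29639, AT3G29644 and AT2G10975 lie above wild type in all 6 mutant libraries, whereas AT5G35480 lies above it under the label nrpe1 and below it under the label hex.

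Of the 8 genes, AT3G29639, AT5G35480, AT2G10975, AT3G29644 and AT5G11430 were called whichever of the 9 libraries was left out. However, AT5G11430, like ORG1, lost its call after quantile normalization, where 6 member genes (1.35%) and 1.59% of all genes were called higher. Called without any 1 library as well were the 3 called higher under the label hex. The calls of MRD1, AT5G35926 and ORG1 were lost without replicate 2 or replicate 3 of the label nrpe1 or without any 1 wild-type library, and that of ORG1 also without replicate 1 or 2 of the label hex. None of the 9 calls of lower RNA under the label nrpe1 outlived the removal of replicate 2 or 3 of that label. RFC3, of a family of ribosomal proteins, fell most among them, by 1.80 on the log2 scale (SE 0.45, limma adjusted p = 0.039), from 72.88, 75.95 and 69.29 TPM in wild type to 42.16, 14.23 and 13.31 TPM, and was also at 28.16 TPM in replicate 3 of the label hex. Replicates 2 and 3 of the label nrpe1 were the farthest from wild type over all genes, with correlations of log2(TPM + 1) with the wild-type libraries of 0.923 to 0.952, against 0.981 to 0.983 for replicate 1 and 0.970 to 0.991 for the libraries labelled hex. Replicate 3 of the label hex was nearer to replicates 1 and 2 of the label nrpe1 (0.982 and 0.980) than to any wild-type library (0.970 to 0.973) or to the others labelled hex (0.971 and 0.978).

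AT1G56090, for a protein with tetratricopeptide repeats, was the member gene called lower in the libraries labelled hex. It was at 4.3, 4.67 and 5.42 TPM in wild type, 0.69, 0.77 and 0.43 TPM under the label hex and 6.2, 7.86 and 9.04 TPM under the label nrpe1. The groups did not overlap, and the fall was 1.83 on the log2 scale (SE 0.15, limma adjusted p = 0.000454). Its Pol II region had a fold enrichment of 2.21 and was not over MORC7.

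Most of the other strong members gave no RNA difference that could be called. The region of rank 4 (chr4:1756579-1757547, fold enrichment 4.03) covered the noncoding RNAs AT4G03811, listed at 0 to 0.52 TPM, and AT4G04675, which has no TPM value. AT3G05945, AT3G05845, AT3G29631, AT5G23115 and AT1G07887, at the members of rank 7 to 10, have none either. HCF136, an assembly factor of photosystem II whose 5′ end lies in the region of rank 9, was at 371.79 to 380.39 TPM in wild type, 311.83 to 340.29 under the label nrpe1 and 366.76 to 383.85 under the label hex. HEI10, a gene of meiotic crossing over that the region at MRD1 also touches, was at 0.26 to 0.46, 0.65 to 1.29 and 0.37 to 1 TPM. AT3G29130, for a KXDL motif protein, differed by less than 2-fold, with 6.36 to 6.9 TPM in wild type, 9.87 to 10.58 under the label nrpe1 and 11.26 to 13.37 under the label hex (limma adjusted p = 0.0231 and 0.00351). AT1G44960, AT2G35130 and UBC33, the genes of the other members among the first 15, passed the 2-fold minimum in neither contrast.

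SDC and FWA, which RNA-directed DNA methylation is known to silence, were not at members. SDC, an F-box gene, had Pol II in both genotypes, with a fold enrichment of 3.16 in hex and 2.00 in wild type, so the selection left it out. Its RNA was 0.18, 0.14 and 0.06 TPM in wild type, 54.77, 49.93 and 47.58 TPM under the label nrpe1 and 6.08, 2.67 and 3.4 TPM under the label hex. FWA had no Pol II peak in either list and at most 0.08 TPM. None of the 6 MORC genes and none of 18 genes of DNA methylation lay at a member. Of these 18, ROS1, a DNA demethylase, was called lower under the label hex and none was called under the label nrpe1. Of all annotated genes, 1.45% lay at a member, and of all tested genes 2.57%. Of 16 clock genes 2 lay at a member, PRR9 and RVE1, of 16 heat shock genes 1, HSA32, and of 15 anther genes 1, QRT3, which helps to part the pollen tetrad. None of the 17 light-harvesting, 23 touch, wounding and cold, 8 pollen or 7 floral organ genes lay at one. In the touch, wounding and cold list, 3 of 17 tested genes were called higher under the label nrpe1, against 2.31% of all genes, in the contrast that rested on single libraries. PRR9, a repressor in the morning part of the clock, was at 14.68 to 15.84 TPM in wild type, 17.3 to 23.23 under the label nrpe1 and 19.57 to 22.99 under the label hex, a difference under 2-fold. HSA32 was not called in either contrast, and RVE1 and QRT3 were under the filter.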

How the data were processed

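ChIP-seq of Pol II (WT 1, hex 1), MORC7-FLAG (3 in wild type, others in mutants), MORC4-FLAG (2) and controls, and RNA-seq (9 libraries), were used. Per the labels and methods, the authors aligned 50 bp reads to TAIR10 with Bowtie2 2.1.0, kept reads with 1 perfect match, dropped duplicates (SAMtools 1.9) and found peaks by MACS2 2.1.1. The lists used here are 1 per library, although the methods also speak of pooled libraries. The deposited peak lists give the fold enrichment (a ratio to background) and the −log10 q value of each peak. For RNA, the authors deposited TPM, a value per gene that sums to the same total in each library. The submitters' notes name RSEM 1.3.1. The file labelled nrpe1 replicate 2 repeats its whole table with the same values under a header naming hex-2, and the first copy was read under the sample's label.

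Overlaps needed 1 bp. Genes came from RefSeq TAIR10.1, and 32835 of 33602 TPM genes had a position there. RNA was tested with limma 3.58.1 (trend, R 4.3.3) on log2(TPM + 1), with Benjamini-Hochberg adjustment. The code was tested on simulated data. Python 3.11.15, NumPy 2.4.6, SciPy 1.17.1 and matplotlib 3.10.9 were used. Named genes were those at the 15 members of highest fold enrichment and the 10 highest over MORC7, up to 10 called member genes per contrast whose groups did not overlap, MORC genes, NRPE1, SDC and FWA, and list genes at a member. The regions, gene lists and this rule were chosen with earlier results of these data known. The classes of fold enrichment, 2.5 for strong members included, were set after the values were seen. Alternatives changed the peak thresholds, the definition of a MORC7 region, the libraries, pseudocount, filter, scaling and model. Depth is unknown, so no interval on TPM is given.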

Additional observations from a re-analysis of the deposited data

Results flagged for a closer look

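At AT5G35480 and AT1G56090, every library under 1 RNA label lay above wild type and every library under the other lay below it. How many other genes do so was not counted. Groups without overlap were common. All libraries labelled nrpe1 lay above all wild-type ones at 158 of 518 member genes and 5284 of all 17459 genes tested. For the label hex the counts were 79 and 1981. The 518 include 73 genes that did not pass the filter on low values, whereas the 17459 all passed it. These counts are thus over unlike sets. At AT5G35480 the mean of the libraries labelled nrpe1 was 614.86 TPM above that of the libraries labelled hex, and at AT1G56090 it was 7.07 TPM above. The difference between the labels was not tested. With 3 libraries a group, no single value was tested for standing apart from its group.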

How the results depend on the processing

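Limits: there was 1 Pol II library per genotype, and depth is unknown, so a region under the detection limit of the wild-type library would count as hex-only.

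With hex peaks past a −log10 q value and a fold enrichment of 3, there were 9 regions, of which 77.8% covered a 5′ end and 88.9% a MORC7 region. Their genes included 1 called higher under the label hex and 2 under the label nrpe1, where 0.235% and 2.31% of all genes tested were called higher. With all deposited hex peaks there were 2525 regions, 17.43% over a 5′ end and 12.3% over MORC7. With wild-type peaks past the threshold alone counted as wild type, there were 1863 regions, 29.1% over a 5′ end and 16.3% over MORC7. Members over a MORC7 region were 27.9% where a peak in 1 library was enough, 14.8% where 3 were needed, 12.4% with MORC7 peaks past a −log10 q value and a fold enrichment of 3, 28.6% within 1 kb, and 14.4% to 18.3% without 1 MORC7 library. The share of the strong members over MORC7, an alternative chosen after seeing the data, was 51.9% to 61.3% over the settings tried, all within its interval.

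Calls under the label nrpe1 rested on the libraries. All genes called were 688, but 113 without a filter on low TPM, 105 with only the 6 libraries compared, 4015 with no minimum fold change and 48 to 1633 without 1 library. Member genes called higher were 8 of 445, and all genes called higher were 404 of 17459. Without 1 library these counts were 5 to 19 and 43 to 845. Member genes called higher were 75 with no minimum fold change and 13 with genes within 1 kb of a member. The shares of all genes to set beside the 75 and the 13 are not given here, so neither is a result about the members. The 1633 came without replicate 1 of that label. The counts were 50 and 66 without its replicate 2 or 3, 48 to 83 without a wild-type library, and 89 and 81 without replicate 1 or 2 of the label hex. Under the label hex, 56 genes were called and 3 member genes called higher. These 3 were called in every alternative fit of the RNA. Libraries of different groups with the same replicate number did not deviate together, and with the replicate block 821 genes were called under the label nrpe1, with 9 member genes higher, and 62 under the label hex, with 3. All genes called higher with the block were 482 under the label nrpe1 and 43 under the label hex. For single named genes, 48 of the alternative values lost the call, 1 gained it and 627 kept their side of the threshold and their direction.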
